A study of Mus musculus with 10 samples.

Results

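Intermediate filament genes were followed across 4 groups of primary mouse cortical neuron cultures. The set holds 7 genes chosen by symbol from the 48526 genes of the deposited count table, and 7 of 7 were found and passed the filter on low counts. They are Nefl, Nefm and Nefh (the light, medium and heavy neurofilament subunits), Ina (alpha-internexin), Prph (peripherin), Vim (vimentin) and Nes (nestin). Neurons came from the cortex of C57BL/6J embryos (E16.5) of wild-type genotype and grew in supplemented neurobasal medium. AraC, which kills dividing cells, was given at 0.5 µM at day 3 to 4 in vitro to the cultures of every group. H2BE-BDNF cultures received a lentivirus that makes the histone variant H2BE from a constitutive promoter, and then BDNF, a neurotrophin that signals through the receptor TrkB. H2BE cultures received the same virus and no BDNF. BDNF cultures received a control lentivirus and then BDNF, and Control cultures received the control lentivirus alone. RNA of every group was taken 24 h after the BDNF step and sequenced after polyA selection. The constitutive promoter is not restricted to neurons. Nothing in the labels ties replicates to separate cultures, so each p-value reflects the spread between these samples alone, which may be technical.

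Each group had 2 distinct samples. Replicate 3 of BDNF and replicate 3 of Control exceeded replicate 1 of their group at 0 genes and are subsets of it, so each was averaged with replicate 1 as 1 sample and left out of the tests. Library totals ran from 5058074 to 14142545 counts, at which 3 counts equal 0.212 to 0.593 CPM, the depth-scaled count. The labels were checked with H2bc21, the gene for H2BE, which was at 33.6 ± 2.2 CPM in H2BE-BDNF against 3.99 ± 0.15 CPM in BDNF, and at 39.2 ± 5.0 CPM in H2BE against 5.28 ± 0.074 CPM in Control (SD, n = 2 each). Levels are CPM scaled by TMM. Log2 fold changes and Benjamini-Hochberg adjusted p-values are from edgeR's quasi-likelihood test over 13452 genes, with a call at an adjusted p under 0.05. Standard errors (SE) were derived from that test, as the absolute log2 fold change over the square root of its F statistic. The 95% intervals were built from this SE and a t quantile.

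Intermediate filaments are rope-like polymers that give cells and axons mechanical strength. Neurofilaments are built from the light subunit, which carries the polymer core, together with the medium and heavy subunits, whose long tails project sideways and are heavily phosphorylated, and alpha-internexin joins them in central neurons. Neurofilament content is known to set axon diameter, and alpha-internexin is the subunit that appears early as cortical neurons mature. Peripherin is mainly a filament of peripheral and motor neurons, vimentin is the general filament of progenitors, glia, fibroblasts and many young neurons, and nestin is the large partner of vimentin in neural progenitors.

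In the annotation of the mm10 build (GENCODE M21), Nefl lies on chromosome 14 from 68083863 to 68089095 on the plus strand and Nefm from 68082590 to 68124846 on the minus strand. The pair shares 1108 exonic bases on opposite strands. Nefh lies on chromosome 11 (4938754 to 4948064, minus strand), Ina on chromosome 19 (47014698 to 47025327, plus strand) and Prph on chromosome 15 (99055174 to 99058978, plus strand). Vim lies on chromosome 2 (13573927 to 13582826, plus strand) and Nes on chromosome 3 (87971078 to 87980451, plus strand). Ina shares 456 exonic bases with Nt5c2 on the other strand, and over all libraries Nt5c2 held 6093 counts against 49063 for Ina. Whether counting used strand is not given in the sources used here, so reads from the shared bases of Nefl and Nefm, or of Ina and Nt5c2, cannot be told apart.

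Promoter sequences were found in the RefSeq table (build GRCm38.p6, 250 bases before to 50 after the start) for 4 of the 7 genes, Vim, Nes, Prph and Ina. Nefl, Nefm and Nefh are named only. The sequences of Vim and Prph are shown because both carry TATAAA, in capitals, while their RNA moved in opposite directions with BDNF. The sequence of Ina is shown for the CGCCCCCGC in capitals, the reverse strand of GCGNGGGCG, which is the site letters of EGR transcription factors. Each line holds the 150 bases before the start site on the plus strand, at chr2:13574161-13574310 for Vim, chr15:99055024-99055173 for Prph and chr19:47014531-47014680 for Ina.
Vim: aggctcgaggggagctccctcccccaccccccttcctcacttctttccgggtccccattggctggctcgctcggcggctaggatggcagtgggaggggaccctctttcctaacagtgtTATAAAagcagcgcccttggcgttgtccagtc
Prph: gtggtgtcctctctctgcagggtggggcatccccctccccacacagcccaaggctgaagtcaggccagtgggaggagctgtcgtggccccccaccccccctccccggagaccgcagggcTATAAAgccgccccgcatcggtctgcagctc
Ina: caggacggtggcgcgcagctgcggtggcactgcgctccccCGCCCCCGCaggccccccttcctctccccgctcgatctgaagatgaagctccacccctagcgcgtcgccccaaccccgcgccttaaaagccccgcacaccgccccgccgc

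The TATAAA of Vim begins 32 bases before the start site and that of Prph 31 bases before it. The match in Ina begins 110 bases before the start site. Over 300 bases and both strands, TATAAA is in 13.6% of 32851 promoters and GCGNGGGCG in 5.55%. The AP-1 letters TGANTCA (7.81% of promoters) and the CRE letters TGACGTCA (1.79%) were in 0 of the 4 promoters, and the promoter of Nes held none of these 4 motifs. The matches are letters in a window and no measure of binding.

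Among the 7 genes alpha-internexin RNA was the most abundant per length in each of the 4 groups. In Control neurons, in CPM per kb of principal transcript, Ina stood at 178 ± 4.9, Nefl at 70.8 ± 0.32, Nefm at 29.9 ± 3.2, Vim at 29.0 ± 2.3, Nefh at 6.31 ± 0.28, Prph at 5.10 ± 0.86 and Nes at 2.25 ± 0.084 (SD, n = 2). Nefm and Vim, neighbours in that order, differed by less than the spread between samples. With BDNF the order began the same way but the gaps narrowed, with Ina at 158 ± 7.2, Nefl at 139 ± 1.9, Nefm at 88.3 ± 4.2, Vim at 79.5 ± 3.2, Nefh at 10.7 ± 2.1, Nes at 3.33 ± 0.46 and Prph at 2.48 ± 0.64 CPM per kb in BDNF cultures. By CPM, Nefl stood above 98.0% of tested genes in BDNF and 93.7% in Control, and Nefm above 95.4% in BDNF and 80.9% in Control. Vim stood above 89.8% in BDNF and 70.7% in Control, while Ina stayed above 98.2% in BDNF and 98.6% in Control. Length matters for Nefm and Vim, whose exon union is longer than the principal transcript. Over the exon union the Control levels were 17.2 CPM per kb for Nefm and 13.4 for Vim.

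BDNF raised 5 of the 7 filament genes and lowered 2 in neurons with the control virus. Nefm and Vim rose most, 2.93-fold and 2.76-fold, Nefl rose 1.96-fold, Nefh 1.69-fold and Nes 1.49-fold. Prph fell to 0.474 times and Ina to 0.880 times its level. All genes tested gave a call at 31.4%, with 16.8% higher and 14.6% lower. The median log2 fold change was 0.76 over the 7 genes and -0.0098 over all tested genes.

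The light subunit Nefl was at 464 and 473 CPM in BDNF samples 1 and 2, against 239 and 240 CPM in Control samples 1 and 2. Both BDNF samples lay far above both Control samples, at a log2 fold change of 0.97 (SE 0.052, adjusted p = 2.08e-09). The medium subunit Nefm was at 285 and 304 CPM in BDNF, against 107 and 92.2 CPM in Control. Its groups did not overlap either, at a log2 fold change of 1.55 (SE 0.069, adjusted p = 2.89e-10). Nefl and Nefm share the exonic bases named above, so reads of one could be counted for the other. The heavy subunit Nefh was at 36.7 and 48.5 CPM in BDNF, against 26.0 and 24.4 CPM in Control. BDNF sample 2 stood apart from sample 1 there, and the groups did not overlap (log2 fold change 0.76, SE 0.11, adjusted p = 0.000101).

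Alpha-internexin went the other way by a small amount. Ina was at 528 and 495 CPM in BDNF, against 587 and 564 CPM in Control. The groups were close without overlap, at a log2 fold change of -0.18 (SE 0.053, adjusted p = 0.0142), and the call was lost without BDNF replicate 2 (adjusted p = 0.0922) or Control replicate 1 (0.13). Its overlapping neighbour Nt5c2 was at 73.9 CPM in BDNF and 64.4 CPM in Control and was not called (log2 fold change 0.21, adjusted p = 0.0689). Peripherin was near the low end of expression. Prph was at 5.46 and 3.77 CPM in BDNF, against 10.6 and 8.37 CPM in Control. Sample 1 was the higher in both groups, and the groups did not overlap (log2 fold change -1.08, SE 0.23, adjusted p = 0.0022; 0.0871 without Control replicate 1).

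Vim was at 169 and 179 CPM in BDNF, against 67.2 and 60.0 CPM in Control. Vimentin RNA was thus higher in each BDNF sample than in each Control sample (log2 fold change 1.47, SE 0.069, adjusted p = 5.69e-10). Nestin was at 18.4 and 22.4 CPM in BDNF, against 14.1 and 13.4 CPM in Control. The groups were apart (log2 fold change 0.57, SE 0.14, adjusted p = 0.00514), but the call was no longer made without Control replicate 1 (adjusted p = 0.0696). In these bulk samples a change in the number of cells of a type and a change in RNA per cell cannot be told apart.

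**Figure D1:**
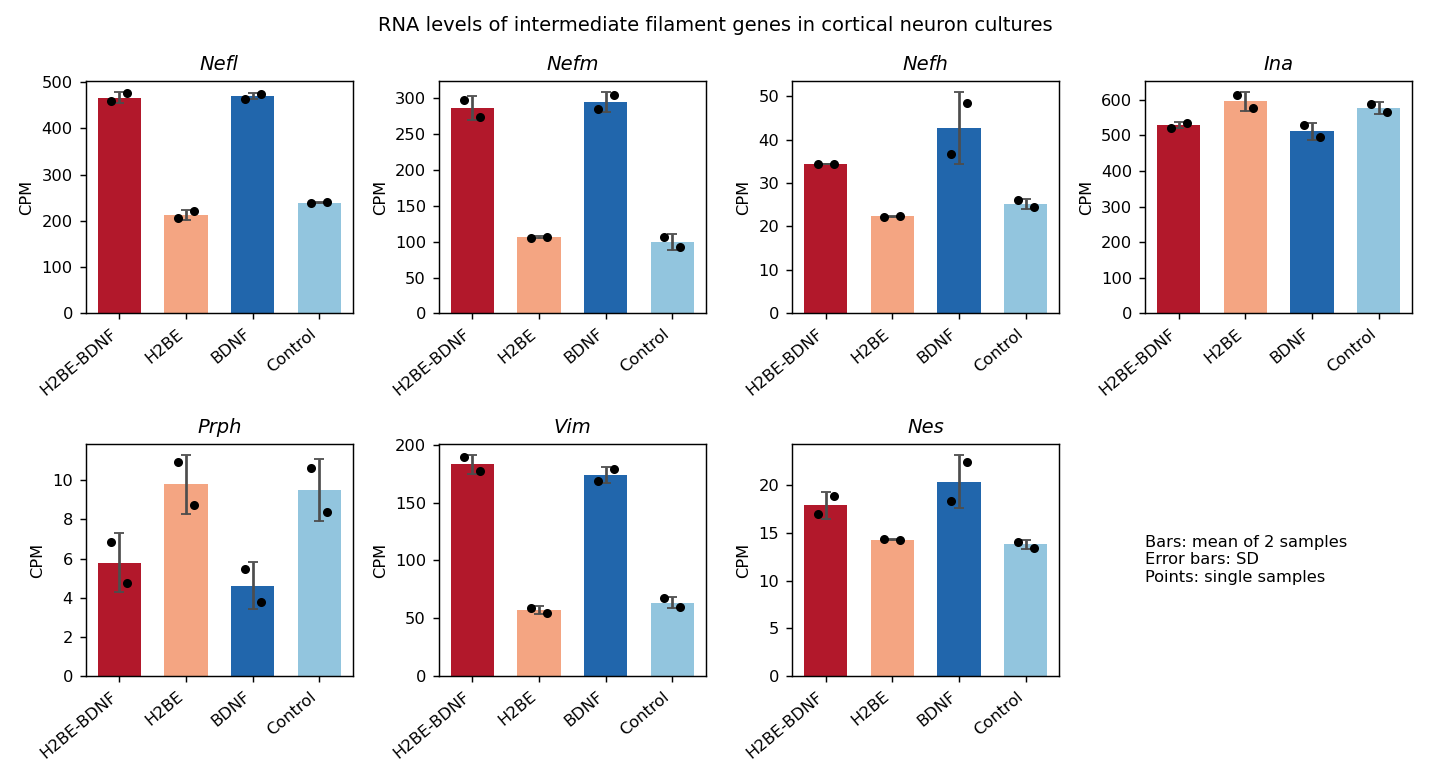
RNA level in CPM (y axes, linear from 0) of each filament gene in H2BE-BDNF, H2BE, BDNF and Control cultures; bars are means of 2 samples, error bars SD and points single samples. Nefl, Nefm, Nefh and Vim are higher in both BDNF-treated groups than in their untreated counterparts, and Prph is lower.

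With the H2BE virus the response to BDNF had the same directions, with 4 of the 7 genes higher, 2 lower and 1 not called, beside a call at 25.8% of all genes (13.4% higher, 12.3% lower). Nefl was at 458 and 475 CPM in H2BE-BDNF samples 2 and 3, against 206 and 221 CPM in H2BE samples 2 and 3, 2.18 times as high, at a log2 fold change of 1.13 (SE 0.054, adjusted p = 1.05e-09). Nefm was at 297 and 274 CPM in H2BE-BDNF, against 105 and 107 CPM in H2BE (log2 fold change 1.43, SE 0.073, adjusted p = 1.97e-09). Nefh was at 34.4 CPM in both H2BE-BDNF samples, against 22.1 and 22.4 CPM in H2BE (log2 fold change 0.62, SE 0.13, adjusted p = 0.00261). For these neurofilament subunits the samples of a group lay close together and the groups did not overlap. With 2 samples a group, groups can be apart without a call. In H2BE against Control this held for Nefl, Nefh, Vim and Nes. The share of all genes without overlap was not computed.

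Ina was at 521 and 534 CPM in H2BE-BDNF, against 613 and 577 CPM in H2BE. The fall had the same size as with the control virus (log2 fold change -0.18, SE 0.054, adjusted p = 0.021), and its call was lost without H2BE replicate 2 (adjusted p = 0.188), H2BE-BDNF replicate 2 (0.13) or H2BE-BDNF replicate 3 (0.0678). Prph was at 6.82 and 4.76 CPM in H2BE-BDNF, against 10.9 and 8.72 CPM in H2BE. That fall (log2 fold change -0.76, SE 0.26, adjusted p = 0.0385) was not called by DESeq2 (adjusted p = 0.106), nor without H2BE replicate 2 (0.299), H2BE replicate 3 (0.0515) or H2BE-BDNF replicate 3 (0.232). Vim was at 189 and 177 CPM in H2BE-BDNF, against 59.3 and 54.9 CPM in H2BE, the largest rise of the 7 genes at 3.18-fold (log2 fold change 1.67, SE 0.075, adjusted p = 6.06e-10). Nes was at 17.0 and 18.9 CPM in H2BE-BDNF, against 14.4 and 14.3 CPM in H2BE. Its samples did not overlap, yet it was not called (log2 fold change 0.31, 95% interval -0.02 to 0.65, adjusted p = 0.162).

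The difference between the BDNF responses under the H2BE virus and the control virus was tested directly, and 0 of the 7 genes were called, beside 1.15% of all genes. By edgeR 0 of the 7 had an unadjusted p under 0.05, and DESeq2 called 0 and gave no adjusted p for 3. For Nefl the H2BE minus control virus difference was 0.16 on the log2 scale (95% interval 0.00 to 0.32, adjusted p = 0.308), and for Vim 0.20 (-0.02 to 0.42, adjusted p = 0.344). For Nefm it was -0.12 (-0.33 to 0.09), for Nefh -0.13 (-0.51 to 0.24) and for Ina 0.00 (-0.16 to 0.16). The intervals of Prph (-0.42 to 1.05) and Nes (-0.70 to 0.19) were wide, so moderate differences in these low genes were not detectable at this depth.

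H2BE itself moved none of the 7 genes past the threshold without BDNF, where 2.13% of all genes were called. Nefl was the closest, at 206 and 221 CPM in H2BE against 239 and 240 CPM in Control. Both H2BE samples were lower, by 0.17 on the log2 scale (log2 fold change -0.17, 95% interval -0.29 to -0.05, unadjusted p = 0.0074, adjusted p = 0.113). It was the 1 gene of the 7 at an unadjusted p under 0.05 by edgeR, and DESeq2 called 0 and gave no adjusted p for 3. The intervals for the other neuronal subunits were -0.09 to 0.24 for Nefm, -0.48 to 0.10 for Nefh and -0.07 to 0.16 for Ina. They were -0.47 to 0.51 for Prph, -0.31 to 0.03 for Vim and -0.25 to 0.43 for Nes.

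Between the BDNF-treated groups, H2BE-BDNF against BDNF, 0 of the 7 genes were called, beside 0.0223% of all genes. Nefh was lowest relative to its counterpart, at 34.4 CPM in both H2BE-BDNF samples against 36.7 and 48.5 CPM in BDNF (log2 fold change -0.32, 95% interval -0.56 to -0.09, adjusted p = 0.311). Without BDNF replicate 1, which leaves the higher BDNF sample alone, its adjusted p was 0.00619. Nefh was the 1 gene with an unadjusted p under 0.05 by edgeR, and DESeq2 called 0. For Nefl (-0.12 to 0.09), Nefm (-0.18 to 0.09), Ina (-0.06 to 0.16) and Vim (-0.07 to 0.20) the 95% intervals excluded a change of more than 0.20 on the log2 scale, while those of Prph (-0.22 to 0.89) and Nes (-0.45 to 0.13) did not.

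**Figure D2:**
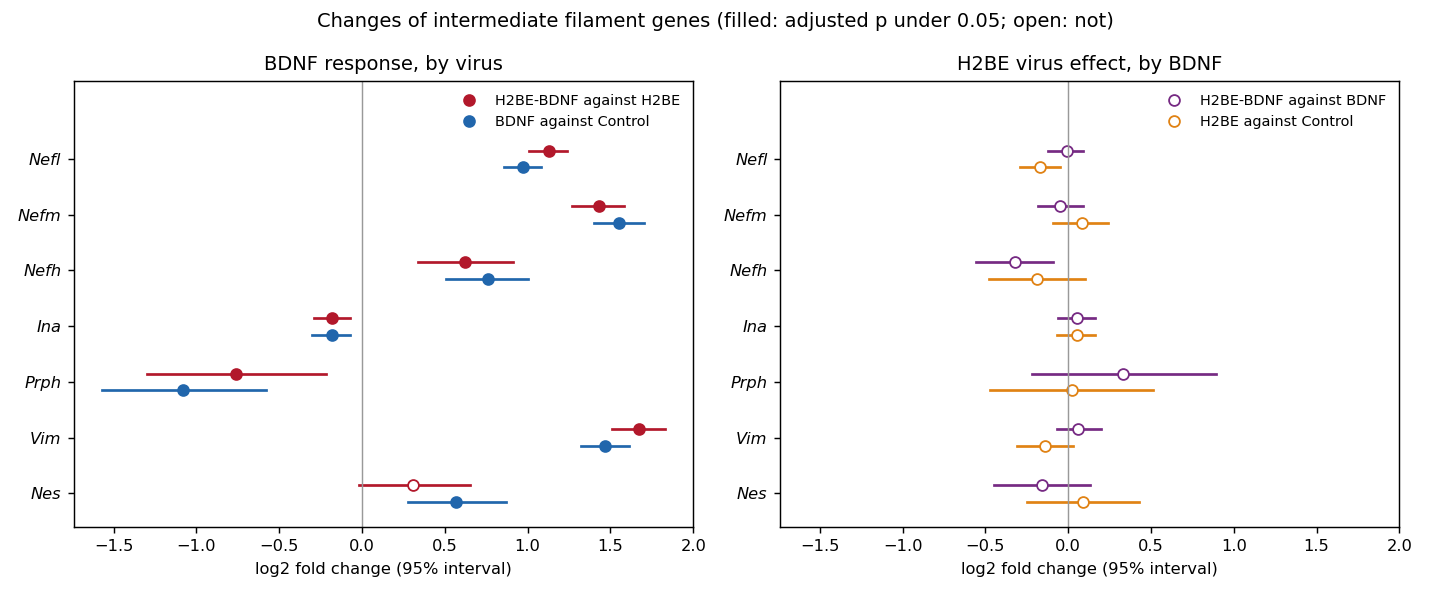
Log2 fold change (x axes) with 95% intervals for the 7 genes (y axis); left, the BDNF response with each virus; right, the effect of the H2BE virus with and without BDNF; filled points passed an adjusted p of 0.05. The BDNF responses of both viruses lie side by side for each gene, from 1.67 for Vim to -1.08 for Prph, and no gene is filled on the right.

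With Nefl, Nefm and Nefh higher and Ina slightly lower, the make-up of the neuronal filament RNA differed between cultures with and without BDNF. No test was run on these shares. Over the 4 subunits Nefl, Nefm, Nefh and Ina, in CPM per kb, Ina made up 39.9% ± 1.9 in BDNF and 62.4% ± 0.047 in Control (SD, n = 2). Nefl made up 35.1% ± 0.39 in BDNF and 24.9% ± 0.81 in Control. Nefm made up 22.3% ± 1.0 in BDNF and 10.5% ± 0.82 in Control, while Nefh was a small share in both, at 2.70% ± 0.52 in BDNF and 2.22% ± 0.036 in Control. With the H2BE virus Ina made up 41.2% ± 0.55 in H2BE-BDNF and 64.6% ± 1.8 in H2BE, and Nefm 21.7% ± 1.3 in H2BE-BDNF and 11.2% ± 0.30 in H2BE. Samples of a group were within a few percentage points of each other, and for Ina, Nefl and Nefm the groups with and without BDNF did not overlap.

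In ratios per length, Ina RNA stood at 1.14 ± 0.067 per Nefl in BDNF and 2.51 ± 0.080 in Control, and Nefm at 0.637 ± 0.021 per Nefl in BDNF and 0.423 ± 0.047 in Control. With the H2BE virus Ina per Nefl was 1.18 ± 0.011 in H2BE-BDNF and 2.92 ± 0.27 in H2BE. The sum of the 4 subunits was 395 ± 0.97 CPM per kb in BDNF and 285 ± 8.0 in Control, and 395 ± 1.3 in H2BE-BDNF and 284 ± 4.4 in H2BE. Using the exon-union length of Nefm its share was 14.2% in BDNF and 6.33% in Control, lower in level but with the same direction, a length chosen after seeing the data. Vim stood at 24.1 ± 2.4 per Nes in BDNF and 12.9 ± 0.56 in Control, and at 28.6 ± 3.5 in H2BE-BDNF and 11.1 ± 0.55 in H2BE. Over the exon union these ratios were 11.7 in BDNF and 6.23 in Control, and 13.8 in H2BE-BDNF and 5.39 in H2BE.

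**Figure D3:**
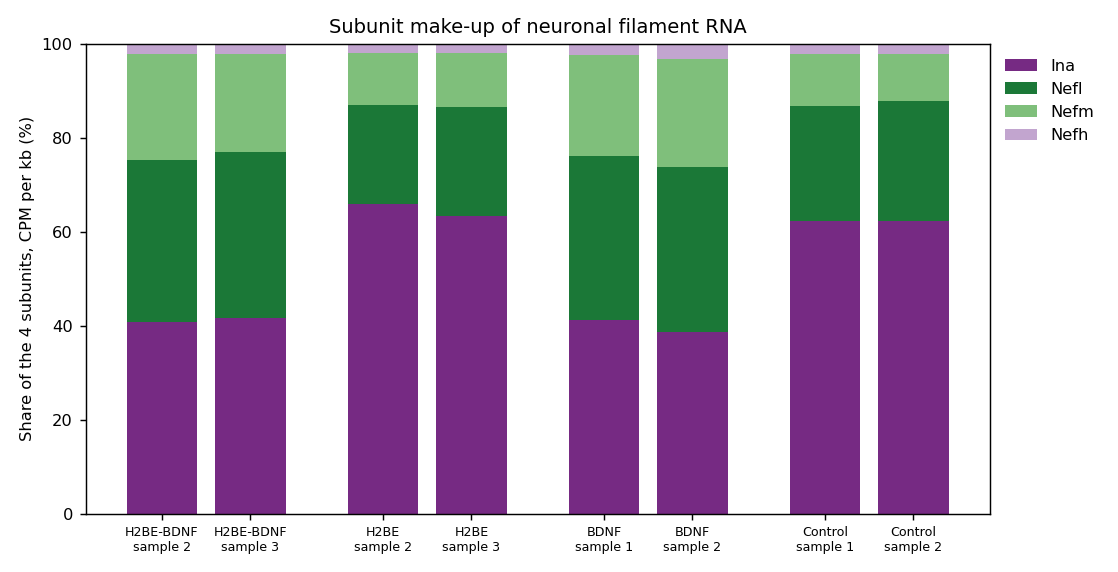
Share (%) of each of the 4 neuronal filament subunits in their summed CPM per kb of principal transcript, 1 stacked bar per sample. Ina fills 38.6% to 41.6% of the bar in BDNF-treated samples and 62.4% to 65.9% in untreated ones.

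The remaining intermediate filament genes changed in both directions. Of 16 listed, 9 were tested, and 1 rose and 4 fell with BDNF (55.6%, beside 31.4% of all genes), at a median log2 fold change of -0.26. With the H2BE virus 2 rose and 3 fell (55.6%, beside 25.8%). Iffo2, an intermediate filament family orphan, was at 58.9 ± 2.7 CPM in BDNF and 35.0 ± 3.0 CPM in Control (log2 fold change 0.81, adjusted p = 6.88e-06). Synm, whose product synemin joins vimentin-type filaments and cannot polymerise alone, fell to 18.3 ± 1.9 CPM in BDNF, against 33.5 ± 0.41 CPM in Control (log2 fold change -0.86, adjusted p = 3.1e-05), and to 13.6 ± 0.88 CPM in H2BE-BDNF, against 29.8 ± 3.2 CPM in H2BE (-1.14, adjusted p = 1.44e-05). It moved opposite to Vim in the same samples. Iffo1 (log2 fold change -0.44) and the nuclear lamina gene Lmnb1 (-0.41) fell with BDNF under the control virus and were not called under the H2BE virus (-0.14 and -0.10), although the difference between viruses was called for 0 of the 9 genes by edgeR. DESeq2 called 1 of these genes up and 2 down in BDNF against Control, and 1 up and 1 down in H2BE-BDNF against H2BE. Without Control replicate 1 edgeR called 1 up and 1 down in BDNF against Control, and without any 1 of the 4 libraries of H2BE-BDNF and H2BE it called 1 up and 1 down in their comparison.

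Genes that link, carry, phosphorylate or turn over filaments also changed in both directions. Of 24 tested, 6 rose and 4 fell with BDNF under the control virus (41.7%, beside 31.4% of all genes), at a median log2 fold change of -0.03, with 4 higher and 2 lower without Control replicate 1. A length and GC correction used the exon-union length of each gene and the GC of its longest transcript. After it the balance turned, with 4 higher and 7 lower. Under the H2BE virus 1 rose and 9 fell (41.7%, beside 25.8%), at a median of -0.09. Dst, a giant cytolinker that ties filaments to actin and microtubules, was at 628 ± 4.4 CPM in BDNF and 399 ± 39 CPM in Control (log2 fold change 0.60, adjusted p = 1.27e-06), and at 555 ± 0.019 CPM in H2BE-BDNF and 501 ± 28 CPM in H2BE (0.14, adjusted p = 0.10). Dync1h1, the dynein motor heavy chain that carries neurofilaments backward along axons, rose under the control virus (0.46) and was not called under the H2BE virus (0.06), as was the cytolinker Macf1 (0.32 and -0.07), whose rise lost its call once length and GC were corrected for (adjusted p = 0.91). Mapk3, which encodes the kinase ERK1, known to phosphorylate neurofilament tails, fell to 131 ± 5.2 CPM in BDNF, against 172 ± 5.0 CPM in Control (-0.40, adjusted p = 0.00017), and fell under the H2BE virus too (-0.36, adjusted p = 0.000889). The difference between viruses was called for 3 of the 24 genes (12.5%, beside 1.15% of all genes), Dst, Dync1h1 and Macf1. It was called for 0 of these 3 after the length and GC correction. H2BE against Control raised 2 genes of this list and lowered 0, beside 2.13% of all genes called, and the 2 calls were lost without Control replicate 1, without H2BE replicate 2 and after correcting for the length and GC of transcripts.

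Microtubule and spectrin genes of the axon shifted in both directions. Of 25 tested, 6 rose and 16 fell with BDNF under the control virus (88.0%, beside 31.4% of all genes), at a median log2 fold change of -0.23. Under the H2BE virus 4 rose and 15 fell (76.0%, beside 25.8%), at a median of -0.18. Stmn1, encoding stathmin, which destabilises microtubules, fell to 396 ± 32 CPM in BDNF, against 1030 ± 55 CPM in Control (log2 fold change -1.36, adjusted p = 2.59e-10), and to 434 ± 7.6 CPM in H2BE-BDNF, against 871 ± 15 CPM in H2BE (-1.01). Ank3, which encodes the axon initial segment scaffold ankyrin-G, was at 829 ± 22 CPM in BDNF and 440 ± 21 CPM in Control (0.86, adjusted p = 1.49e-08), and at 766 ± 49 CPM in H2BE-BDNF and 585 ± 26 CPM in H2BE (0.39, adjusted p = 9.61e-05). Map2, which stabilises dendritic microtubules, was at 2640 ± 46 CPM in BDNF and 1750 ± 60 CPM in Control (0.55, adjusted p = 1.13e-07). The difference between viruses was called for 3 of the 25 genes, beside 1.15% of all genes. These were Ank3, Ank2 and Map1a (the last 2 named after their values were seen), and 0 of the 3 were called after the length and GC correction. H2BE against Control raised 4 of these genes and lowered 1 (20.0%, beside 2.13% of all genes), and 0 were called without Control replicate 1, without H2BE replicate 2 or after the length and GC correction.

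**Figure D4:**
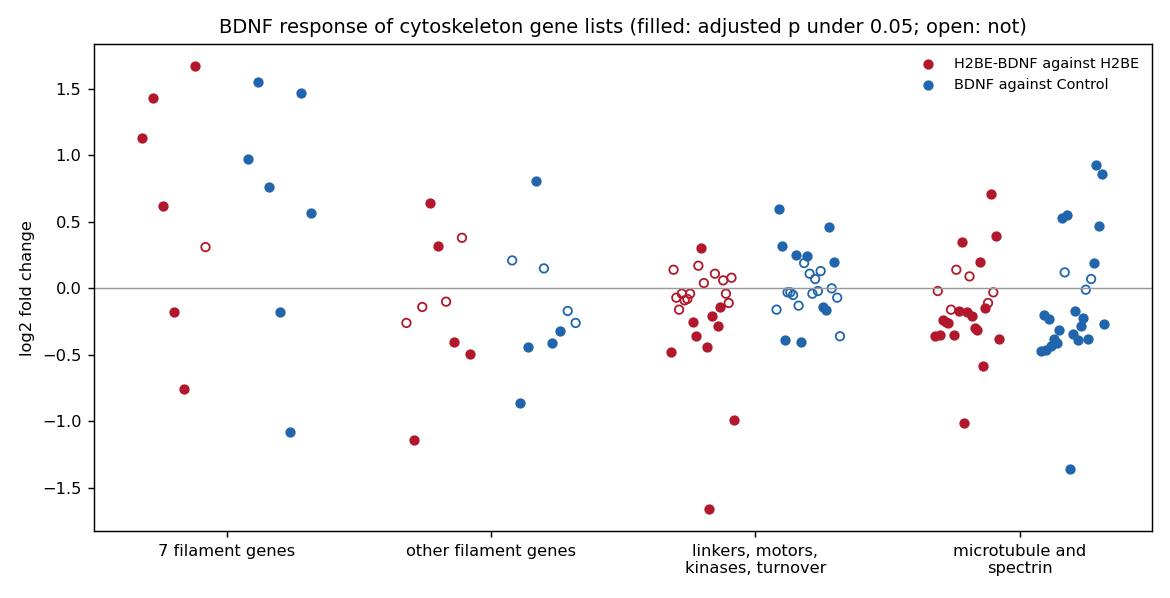
Log2 fold change with BDNF (y axis) of each tested gene in 4 lists (x axis), with H2BE-BDNF against H2BE on the left of each pair and BDNF against Control on the right; filled points passed an adjusted p of 0.05. The 7 filament genes span -1.08 to 1.67, and most microtubule and spectrin genes lie below 0, with Stmn1 lowest at -1.36.

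Vim and Nes are also markers of glia and progenitors, so markers of the cell types that the cultures could hold were summed in the same samples. The 12 cortical neuron genes summed to 4670 to 4900 CPM in BDNF and 5030 CPM in both Control samples, and to 4540 to 4560 CPM in H2BE-BDNF and 5060 to 5200 CPM in H2BE. Of the 12, 3 rose and 5 fell with BDNF under the control virus (66.7%, beside 31.4% of all genes). Under the H2BE virus 3 rose and 7 fell (83.3%, beside 25.8%), so the sums hide changes in both directions. Slc17a6 rose most under the control virus (log2 fold change 1.15) and rose under the H2BE virus (1.16). Neurod6 (-0.77 and -0.54), Rbfox3 (-0.59 and -0.66) and Tubb3 (-0.47 and -0.36) fell under both. The 13 radial glia and progenitor genes, with Vim and Nes not among them, summed to 125 to 153 CPM in BDNF and 126 to 136 CPM in Control, and to 108 to 117 CPM in H2BE-BDNF and 105 to 111 CPM in H2BE. Of the 11 tested, 3 rose and 1 fell with BDNF under the control virus (36.4%, beside 31.4% of all genes), and 1 rose and 1 fell under the H2BE virus (18.2%, beside 25.8%). Without Control replicate 1 the calls under the control virus were 0 up and 1 down, without Control replicate 2 they were 1 up and 0 down, and under the H2BE virus 0 were left without H2BE replicate 2, H2BE replicate 3 or H2BE-BDNF replicate 3. Eomes, a marker of intermediate progenitors, fell under the control virus (log2 fold change -0.99, adjusted p = 0.00822), but was not called when BDNF replicate 2 or Control replicate 2 was left out. The proliferation gene Mki67 was at 1.80 ± 0.22 CPM in BDNF and 0.480 ± 0.19 CPM in Control (log2 fold change 1.76, adjusted p = 0.00976), and was not called when either Control replicate was left out. Top2a (1.66, adjusted p = 0.0253) and Sox2 (0.43, adjusted p = 0.0244) rose too, and each lost its call under some alternatives. Under the H2BE virus Mki67 rose from 0.41 to 1.62 CPM (1.95, adjusted p = 0.0254). In the H2BE libraries 3 counts equal 0.424 and 0.593 CPM. There Top2a (1.17, adjusted p = 0.204) and Sox2 (0.33, adjusted p = 0.144) were not called.

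The 10 astrocyte genes summed to 516 to 572 CPM in BDNF and 492 to 517 CPM in Control, and to 539 to 556 CPM in H2BE-BDNF and 600 to 616 CPM in H2BE. Slc1a2, at 378 CPM in BDNF and 315 CPM in Control, held most of each sum. Gfap, the astrocyte filament, was at 3.07 CPM in BDNF and 2.68 CPM in Control and was not called (log2 fold change 0.21, adjusted p = 0.696). Of the 9 tested astrocyte genes, 2 rose and 1 fell under the control virus (33.3%, beside 31.4% of all genes). These were Gja1 (0.87), Slc1a2 (0.22) and Atp1b2 (-0.36), of which Gja1 and Slc1a2 each lost their call under some alternatives. Under the H2BE virus 0 rose and 2 fell (22.2%, beside 25.8%), Atp1b2 (-0.52) and Aqp4 (-1.06), and Aqp4 lost its call under some alternatives. The 10 oligodendrocyte genes summed to 88.0 to 98.6 CPM in BDNF and 54.6 to 58.2 CPM in Control, but without Mbp, at 51.9 ± 1.0 CPM in BDNF and 19.9 ± 0.0058 CPM in Control, the sums were 36.9 to 46.0 CPM in BDNF and 34.7 to 38.4 CPM in Control. With the H2BE virus the sums were 92.9 to 98.4 CPM in H2BE-BDNF and 55.7 to 60.2 CPM in H2BE. Without Mbp they were 32.9 to 36.8 CPM in H2BE-BDNF and 31.1 to 34.4 CPM in H2BE. Of the 8 tested, 1 rose and 0 fell with each virus (12.5%, beside 31.4% and 25.8% of all genes). The 9 microglia genes summed to 24.4 to 25.0 CPM in BDNF and 11.3 CPM in both Control samples. Without the lysosomal gene Cd68 they summed to 6.56 to 7.32 CPM in BDNF and 6.13 to 6.80 CPM in Control, and to 4.55 to 5.20 CPM in H2BE-BDNF and 1.98 to 4.51 CPM in H2BE, without overlap. Of the 4 microglia genes tested 1 rose under the control virus (25.0%, beside 31.4%) and 2 under the H2BE virus (50.0%, beside 25.8%), where Aif1, at 1.35 ± 0.28 CPM in H2BE-BDNF and 0.170 ± 0.040 CPM in H2BE, was called with Cd68 (log2 fold change 2.95, adjusted p = 0.0215, up to 0.18 over the alternatives). In the H2BE libraries 3 counts equal 0.424 and 0.593 CPM, above the H2BE level of Aif1. Under the control virus Aif1 was not called (-0.75, adjusted p = 0.336). Cd68 was at 17.8 ± 0.96 CPM in BDNF and 4.86 ± 0.47 CPM in Control (log2 fold change 1.84). Cx3cr1, P2ry12, Tmem119 and Itgam were each below 1 CPM in all 4 group means. Cx3cr1 was at 0.931 CPM in BDNF and 0.374 CPM in Control. C1qa was at 2.05 and 2.73 CPM in BDNF and Control, C1qb at 1.62 and 1.46 CPM, and Csf1r at 1.26 and 0.507 CPM.

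The 9 mural and fibroblast genes summed to 53.9 to 65.9 CPM in BDNF and 67.0 to 79.0 CPM in Control, and to 61.0 to 63.9 CPM in H2BE-BDNF and 67.4 to 88.6 CPM in H2BE. Of the 8 tested, 0 rose and 1 fell under the control virus (12.5%, beside 31.4% of all genes). Under the H2BE virus 1 rose and 1 fell (25.0%, beside 25.8%). Dcn fell under both, to 7.05 CPM in BDNF against 19.4 CPM in Control (log2 fold change -1.45, adjusted p = 1.4e-06). Under the H2BE virus its log2 fold change was -0.94 (adjusted p = 0.00019), and Rgs5 rose (0.49, adjusted p = 0.011). Sums without Dcn were not computed. The 6 endothelial genes summed to 3.26 to 3.36 CPM in BDNF and 2.68 to 4.53 CPM in Control. For Prph, the 8 motor and peripheral neuron genes summed to 4.18 to 5.84 CPM in BDNF and 4.36 to 4.53 CPM in Control, with 0 of the 2 tested genes called by edgeR. The part of cell make-up in the rise of Vim and Nes or the fall of Prph was not tested.

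The nearest protein-coding neighbours of the 7 genes were examined too. Dock5, which encodes a Rac activator and lies 149 kb from Nefm, was at 27.1 CPM in BDNF and 5.21 CPM in Control (log2 fold change 2.39, adjusted p = 1.01e-07), and rose under the H2BE virus too (2.34, adjusted p = 6.34e-07), with no call of the difference between viruses (-0.05, adjusted p = 0.958). Among the other nearest neighbours that were tested (Ap1b1, Bcan, Cnnm2, Pcgf6, St8sia6, Thoc5, Trdmt1 and Tuba1c) 0 were called by edgeR in either BDNF comparison. In a window of 1.5 Mb to each side of Nefl, a span chosen after seeing the values, 9 tested genes other than Nefl and Nefm were present. BDNF against Control showed 5 higher and 2 lower (77.8%, beside 31.4% of all genes), and H2BE-BDNF against H2BE 3 higher and 2 lower (55.6%, beside 25.8%). The 3 that rose under both were Dock5, Stc1 (2.66 and 2.45), which encodes the secreted glycoprotein stanniocalcin-1, and Slc25a37 (1.59 and 1.61), the mitochondrial iron importer mitoferrin-1. Adra1a and Kctd9 rose under the control virus (1.04 and 0.64) and were not called under the H2BE virus (-0.01 and 0.27), and the difference between viruses was not called for Adra1a (-1.04, adjusted p = 0.0674, with a range of 0.00485 to 0.405 over alternatives) or Kctd9 (-0.37, adjusted p = 0.542). The rise of Kctd9 was not called without Control replicate 1 (adjusted p = 0.119) or by DESeq2 (0.0872). Dpysl2 (-0.28 and -0.30) and Bnip3l (-0.59 and -0.50) fell under both.

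The same span around Nefh held 56 tested genes, of which 6 rose and 11 fell under the control virus (30.4%) and 5 rose and 7 fell under the H2BE virus (21.4%). Around Ina, of 39 genes 7 rose and 8 fell under the control virus (38.5%) and 6 rose and 2 fell under the H2BE virus (20.5%). Around Prph, of 57 genes 4 rose and 12 fell (28.1%) with the control virus and 2 rose and 9 fell (19.3%) with the H2BE virus. Around Vim, of 16 genes 5 rose and 1 fell (37.5%) with the control virus and 4 rose and 2 fell (37.5%) with the H2BE virus. Around Nes, of 63 genes 8 rose and 3 fell (17.5%) with the control virus and 8 rose and 5 fell (20.6%) with the H2BE virus. All genes tested stood at 31.4% and 25.8%. The windows differ in gene number, and no test of neighbourhood was made.

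**Figure D5:**
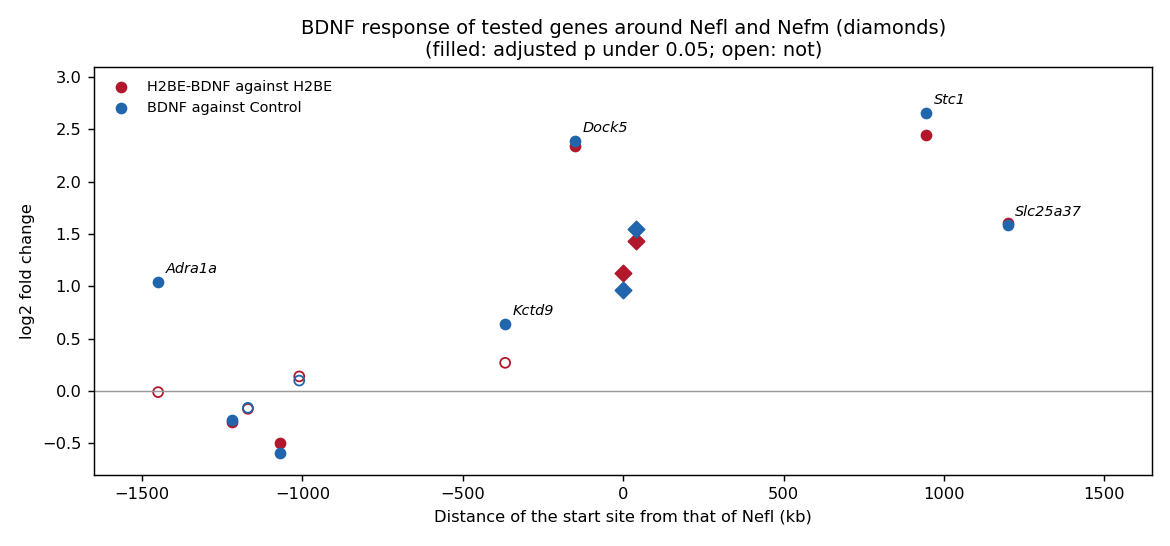
Log2 fold change with BDNF (y axis) of the tested genes within 1.5 Mb of Nefl, by the distance of their start site from that of Nefl in kb (x axis); diamonds are Nefl and Nefm, and filled points passed an adjusted p of 0.05. Dock5, Stc1 and Slc25a37 lie between 1.59 and 2.66 with both viruses.

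The genes whose pattern over the 8 distinct libraries lay nearest to each filament gene were listed by root-mean-square distance of mean-centred log2 CPM, among 10430 genes averaging 5 CPM or more. Nearest to Nefl was the somatostatin receptor gene Sstr2 (distance 0.0708), followed by the kinase-family gene Stk40 (0.0845) and the transcription factor gene Stat3 (0.0882). Nearest to Nefm were the retrotransposon-derived imprinted gene Peg10 (0.0794), Slc25a37 (0.0930) and the sulfotransferase gene Chst2 (0.104). Vim had Slc25a37 (0.0857), Peg10 (0.0872) and the polyamine acetyltransferase gene Sat1 (0.104) nearest. Vim and Nefm lay 0.106 from each other, closer than Nefl lay to Nefm (0.254).

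Nearest to Nefh were Srxn1 (0.0649), Cited2 (0.0660) and Pacsin2 (0.0705). Ina, which hardly changed, had Ercc4 (0.0255), Maz (0.0263) and Ahi1 (0.0298), and Nes had Ankrd50 (0.0298), Rora (0.0519) and Zbtb7a (0.0519). Prph had no gene as close, with Pou2f2 at 0.142, Rprm at 0.154 and Foxp4 at 0.163. These distances describe 8 libraries in which the presence of BDNF is the main difference, with 53.8% of the variance on the leading principal component.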

How the data were processed

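Raw counts per Ensembl gene for 10 libraries were deposited by the authors, with no normalization. A second deposited table holds a signal, the raw counts of each library divided by 1 size factor by the authors, and served for gene symbols. The build mm10, SAMtools, DESeq2 and deepTools are named without versions per the submitters' processing notes. For the aligner, the counting tool, its strand setting and the annotation, the entry is: not given in the sources used here.

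From the counts, filterByExpr (minimum count 10, minimum total 15) kept 13452 genes with 99.78% of counts. After TMM scaling, the quasi-likelihood test of edgeR 4.0.16 (with limma 3.58.1 in R 4.3.3) was fitted to a mean per group over 8 distinct libraries, with Benjamini-Hochberg adjustment over all tested genes. The test was checked on simulated counts. Depth sets the precision, and intervals and floors cover counting error and sample spread only. For CPM means, the third BDNF and Control libraries were averaged with the first as 1 sample. Levels between genes are per kb of the principal transcript (GENCODE M21).

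Alternatives were all 10 libraries, a replicate block, size factors of the RLE method, DESeq2 1.42.0, no filter, a length and GC correction (lowess span 0.3) and leaving out each library. The correction used the exon-union length of each gene and the GC of its longest transcript. The 7 genes and the lists were chosen with earlier results of these data known. Genes named beside them are up to 4 called genes per list with the smallest p, the nearest neighbours on the genome and the 3 genes of nearest pattern.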

Additional observations from a re-analysis of the deposited data

Results flagged for a closer look

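Among the 24 tested genes that link or carry filaments and the 25 of the microtubule and spectrin list, 3 of each list had a BDNF response that differed between viruses by the direct test (H2BE minus control virus, edgeR, log2 scale). Dst differed by -0.46 (SE 0.080, adjusted p = 0.0264), with 555 CPM in H2BE-BDNF and 501 CPM in H2BE, and 628 CPM in BDNF and 399 CPM in Control. Dync1h1 differed by -0.39 (adjusted p = 0.0292) and Macf1 by -0.39 (adjusted p = 0.0339). In the microtubule and spectrin list, Ank2 differed by -0.50 (adjusted p = 0.0177), Ank3 by -0.47 (adjusted p = 0.0178) and Map1a by -0.39 (adjusted p = 0.0264). After the length and GC correction the differences were -0.08 for Dst (adjusted p = 0.681), -0.17 for Dync1h1 (0.28), -0.07 for Macf1 (0.694), -0.15 for Ank2 (0.352), -0.12 for Ank3 (0.45) and -0.22 for Map1a (0.224). An exon union merges the exons of all annotated transcripts of a gene and can exceed any single transcript. The exon unions were 41.2 kb for Dst, 15.7 kb for Dync1h1, 31.4 kb for Macf1, 35.0 kb for Ank2, 34.8 kb for Ank3 and 12.2 kb for Map1a. When each of the 8 libraries was left out in turn, Dst, Dync1h1 and Macf1 kept their call in 4 of 8 fits each and Ank2, Ank3 and Map1a in 5 of 8 each. The part of length in these differences was not tested beyond the length and GC correction.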

How the results depend on the processing

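Nefl, Nefm, Nefh and Vim kept their BDNF calls with both viruses under every alternative run, at log2 fold changes of 0.96 to 0.99, 1.46 to 1.67, 0.57 to 0.92 and 1.41 to 1.53 with the control virus. No gene of the 7 with a call changed direction. The calls lost or gained for Ina, Prph, Nes and Nefh are given with their values above, except that Prph in H2BE-BDNF against H2BE was not called under the replicate block with crossed numbers described below (adjusted p = 0.0661), and Nefl in H2BE against Control was called when all 10 libraries counted as replicates (adjusted p = 0.0295), subsets included. The cause of these changes was not tested.

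Counts over all genes moved more. BDNF against Control gave 4225 calls, 6465 with all 10 libraries and 2680 by DESeq2. H2BE against Control gave 287 calls, 1611 with all 10 libraries, 559 with no filter and 21 after the length and GC correction, with 62.4% of calls higher against 85.7% after that correction. H2BE-BDNF against BDNF gave 3 calls, 24 with all 10 libraries, 10 by DESeq2 and 216 with no filter, and the share higher was 66.7% against 37.5%, 50.0% and 25.5%. The difference of responses gave 155 calls, 1169 with all 10 libraries, 440 with no filter and 5 after the correction, with 28.4% higher against 39.9% with all 10 libraries and 0.0% after the correction. Leaving out each library gave 2278 to 4499 calls for BDNF against Control (lowest without Control replicate 1), 1818 to 4157 for H2BE-BDNF against H2BE (lowest without H2BE replicate 2), 2 to 890 for H2BE against Control, 1 to 764 for H2BE-BDNF against BDNF and 0 to 897 for the difference. A left-out library leaves a lone sample that is assumed to vary like the other groups.

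Same-numbered samples did not deviate together (correlations of -0.17 for BDNF and Control and -0.299 for H2BE-BDNF and H2BE, 2 pairs each, and not computed between viruses), which does not show that the numbers pair samples, and no label ties them. A replicate block gave 3693 calls for BDNF against Control, 3230 for H2BE-BDNF against H2BE, 140 for H2BE against Control (80.0% higher), 119 for H2BE-BDNF against BDNF (28.6% higher) and 245 for the difference, and changed no call of the 7 genes. With the numbers crossed, a pairing chosen after seeing the data, the counts were 4886, 3813 and 0 for BDNF against Control, H2BE-BDNF against H2BE and the difference. Of the 7 genes Prph and Nes, at 4.62 to 20.4 CPM, have the widest intervals, which depth and 2 samples a group limit.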
